A study of Homo sapiens with 33 samples.

Results

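MYC, the gene of a transcription factor that drives cell growth, and 45 genes of ribosome biogenesis were followed in HT29 cells, a human colorectal adenocarcinoma line, treated with extracts of 4 herbal formulas. The 46 members were listed by name and matched by identifier; all 46 were found among the 60675 genes of the table, and all 46 were among the 17432 genes with enough counts to be tested. Vehicle cells received DMSO, given as 0.1% in the sample labels while the series text gives another percentage. The other groups received 70% ethanol extracts of Sagunja-tang, Samul-tang, Palmul-tang (which combines the herbs of the former pair) or Sibjeondaebo-tang (Palmul-tang with additional herbs) at 500, 100 or 20 µg/mL, called high, medium and low here. RNA was collected after 24 h in 33 libraries: 3 of vehicle, 2 at each dose of the first pair of formulas and 3 at each dose of the second pair. Where 4 values are given without names, they stand in the order Sagunja, Samul, Palmul, Sibjeondaebo.

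Ribosomes are built in the nucleolus. RNA polymerase I transcribes one long precursor rRNA, small nucleolar RNA-protein particles modify and help cleave it, and separate sets of assembly factors, many of them helicases, WD-repeat scaffolds and GTPases, turn it into the small and large ribosomal subunits. MYC, with its partner MAX, binds the E-box CACGTG and is a textbook activator of many of these genes, and MYC is commonly highly expressed in colorectal cancer, where Wnt signalling drives it. The members fall by role into MYC, 3 RNA polymerase I subunits, 7 proteins of the box C/D and H/ACA particles, 5 nucleolar granule proteins, 17 factors of small subunit assembly and 13 of large subunit assembly.

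The E-box was searched in promoter windows from RefSeq (GRCh38.p14), which run from 250 bases before to 50 bases after each gene's start. A window was found for 38 of the members, and 17 of these (44.7%) held CACGTG, which reads the same on both strands. The same letters were in 12.3% of the 11547 tested genes with a window and in 7.26% of all 35116 windows. Of the 17 matches, 16 lay between 64 bases before and 35 bases after the start; that of UTP14A lay 241 bases before it. Matches were in 9 of 16 windows of small subunit factors, 4 of 9 of large subunit factors, 2 of 5 each of particle and granule proteins and 0 of 3 of the polymerase subunits. A match describes letters and says nothing of binding. Windows of 120 bases, from 90 before to 30 after the start, are shown for described members whose RNA level differed between doses, with the E-box in capitals. They are RRP9 at chr3:51941875-51941994 (minus strand), NAT10 at chr11:34105539-34105658 (plus strand), DDX21 at chr10:68956557-68956676 (plus strand), MRTO4 at chr1:19251715-19251834 (plus strand), FBL at chr19:39846350-39846469 (minus strand) and GNL3 at chr3:52685942-52686061 (plus strand). For DDX21 and GNL3, which have a further start in the table, the window that holds the match is shown. NCL, at chr2:231464455-231464574 (minus strand), is shown as a described member without a match.
RRP9: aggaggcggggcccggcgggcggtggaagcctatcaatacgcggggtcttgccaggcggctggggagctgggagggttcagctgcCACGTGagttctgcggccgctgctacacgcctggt
NAT10: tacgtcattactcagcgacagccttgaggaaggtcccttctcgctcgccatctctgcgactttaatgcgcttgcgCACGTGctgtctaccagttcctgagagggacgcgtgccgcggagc
DDX21: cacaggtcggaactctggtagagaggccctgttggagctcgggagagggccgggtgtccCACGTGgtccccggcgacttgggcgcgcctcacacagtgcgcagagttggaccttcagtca
MRTO4: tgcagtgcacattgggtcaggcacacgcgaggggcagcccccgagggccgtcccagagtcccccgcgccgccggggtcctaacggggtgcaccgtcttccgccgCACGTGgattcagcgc
FBL: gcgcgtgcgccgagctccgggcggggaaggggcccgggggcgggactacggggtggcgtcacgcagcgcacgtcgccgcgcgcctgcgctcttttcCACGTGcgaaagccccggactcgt
GNL3: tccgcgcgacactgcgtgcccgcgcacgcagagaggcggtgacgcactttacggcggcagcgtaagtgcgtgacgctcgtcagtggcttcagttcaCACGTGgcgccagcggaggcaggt
NCL: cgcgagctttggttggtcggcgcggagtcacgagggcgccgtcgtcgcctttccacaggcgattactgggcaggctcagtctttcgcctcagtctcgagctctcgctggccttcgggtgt

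Total counts per library were 31.1 M to 35.6 M in vehicle and 28.6 M to 49.1 M with extracts, M standing for mega. The libraries carried colon epithelial markers: 9 of 10 had a mean of at least 1 CPM (counts scaled to library size, here with TMM normalization), CDX1 being the exception, and their summed level was 12228 to 12649 CPM in vehicle and 11487 to 14034 with extracts. Fibroblast markers summed to at most 2.74 CPM and endothelial markers, 1 of which was at 0 throughout, to at most 2.07. Of the 6 leukocyte markers CD68 and LYZ alone reached a mean of 1 CPM, with a sum of 1374 to 1436 CPM in vehicle and 1368 to 1821 with extracts. The 13 protein-coding mitochondrial genes took 7.43 to 9.80% of counts in vehicle and 4.65 to 7.53% with extracts, which moves with every comparison with vehicle, and their part in those comparisons was not tested. Vehicle and extract libraries have different prefixes in their sample codes, so prefix and treatment cannot be told apart against vehicle, while all doses of an extract share a prefix. Sagunja-tang and Samul-tang have a prefix in common, and Palmul-tang and Sibjeondaebo-tang another. Libraries with the same prefix are called a code set here, and what the prefixes mean is not stated. The sample titles place all 33 libraries in batch E. Whether replicates were separate cultures is not stated. The p-values therefore weigh differences only against the spread among these libraries, shared over all groups, and that spread may be technical. The pair of high-dose Sagunja-tang libraries differed along gene length. Against the vehicle mean, the 7 members with over 8000 exon bases had a median log2 value of -0.05 in replicate 2 and 0.00 in replicate 3, and the other members 0.12 and 0.06.

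Compared between high and low dose, most members were higher at the high dose, and none was called lower (edgeR's quasi-likelihood test with Benjamini-Hochberg adjustment over all 17432 genes, adjusted p under 0.05). The number that rose was 12 of 46 with Sagunja-tang, 30 under Samul-tang, 36 under Palmul-tang and 43 under Sibjeondaebo-tang. Over all genes tested, 3.33, 4.10, 7.66 and 15.5% were called higher and 3.86, 3.43, 6.75 and 14.3% lower. The shifts were small: the members' median log2 fold change was 0.12, 0.20, 0.20 and 0.26, that is a median fold of 1.09, 1.15, 1.15 and 1.19, while the median over all genes was within 0.01 of 0. The sign was positive in 41 members with Sagunja-tang and in all 46 with each other extract. These are shares of RNA in a culture, so more cells expressing a gene and more of its RNA per cell cannot be told apart.

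The single libraries show the same step. The members' median log2 value against the vehicle mean was between -0.05 and -0.01 in each of the 10 low-dose libraries and between 0.05 and 0.22 in each of the 10 high-dose libraries. Summed over the members, the level was 7336 to 7642 CPM at the low dose, against 7917 and 8252 CPM in the high-dose libraries of Sagunja-tang, 8371 and 8510.2 of Samul-tang, 8505 to 8658 of Palmul-tang and 8724 to 8923 of Sibjeondaebo-tang. Vehicle libraries summed to 7500 to 7834 CPM, so they lay above or among the low-dose libraries and below every high-dose one. Every high-dose library was above every low-dose library in 35, 46, 42 and 45 members in the order above, against 22.0, 27.3, 16.8 and 23.3% of all genes. Group means rose in the order low, medium, high in 28, 45, 43 and 43 members, against 19.5, 25.6, 26.1 and 29.6% of all genes.

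**Figure D1:**
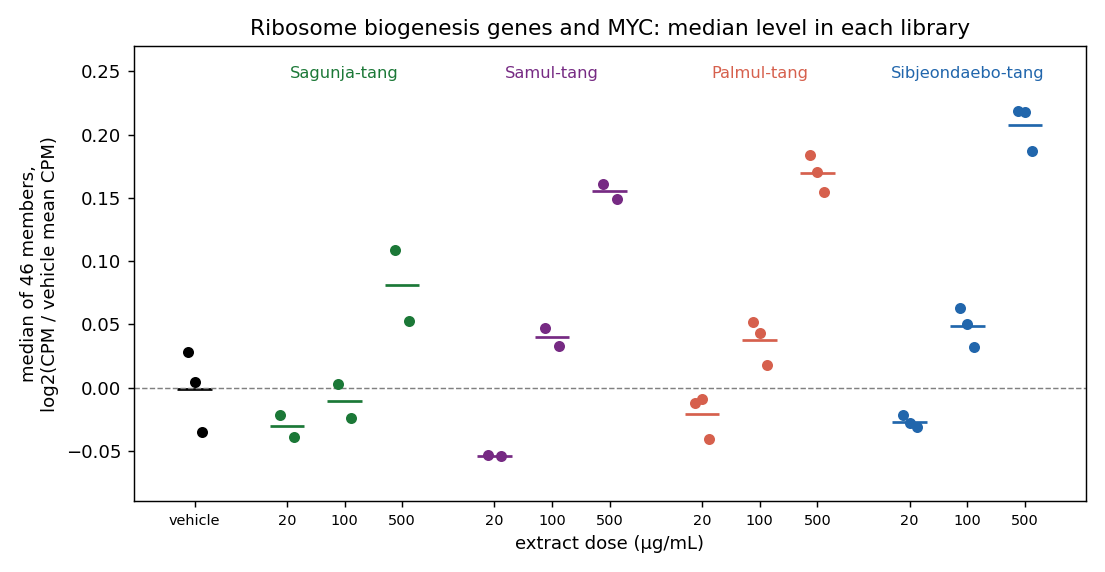
Median over the 46 members of log2(CPM / mean vehicle CPM) in each library (points), by extract and dose in µg/mL, with the mean of each group as a line. The 10 low-dose libraries lie between -0.05 and -0.01 and the 10 high-dose libraries between 0.05 and 0.22.

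The counts for the groups of 2 depended on single libraries. For Sagunja-tang, 0 members were called without high-dose replicate 2, 2 without low-dose replicate 2 and 1 without low-dose replicate 3, while without high-dose replicate 3 there were 21 higher and 3 lower. For Samul-tang, 9 were called without high-dose replicate 2, 9 without low-dose replicate 2, 11 without high-dose replicate 3 and 10 without low-dose replicate 3, all higher. The counts for Palmul-tang and Sibjeondaebo-tang stayed at 30 to 33 and 41 to 43 whichever library was left out. Scaling by total counts in place of TMM gave 5 higher with Sagunja-tang and 15 with Samul-tang. With trends along gene length and GC content removed, 12, 33, 40 and 42 members were called. Calls that were kept whichever library of the comparison was left out numbered 0 of 12, 5 of 30, 27 of 36 and 40 of 43.

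**Figure D2:**
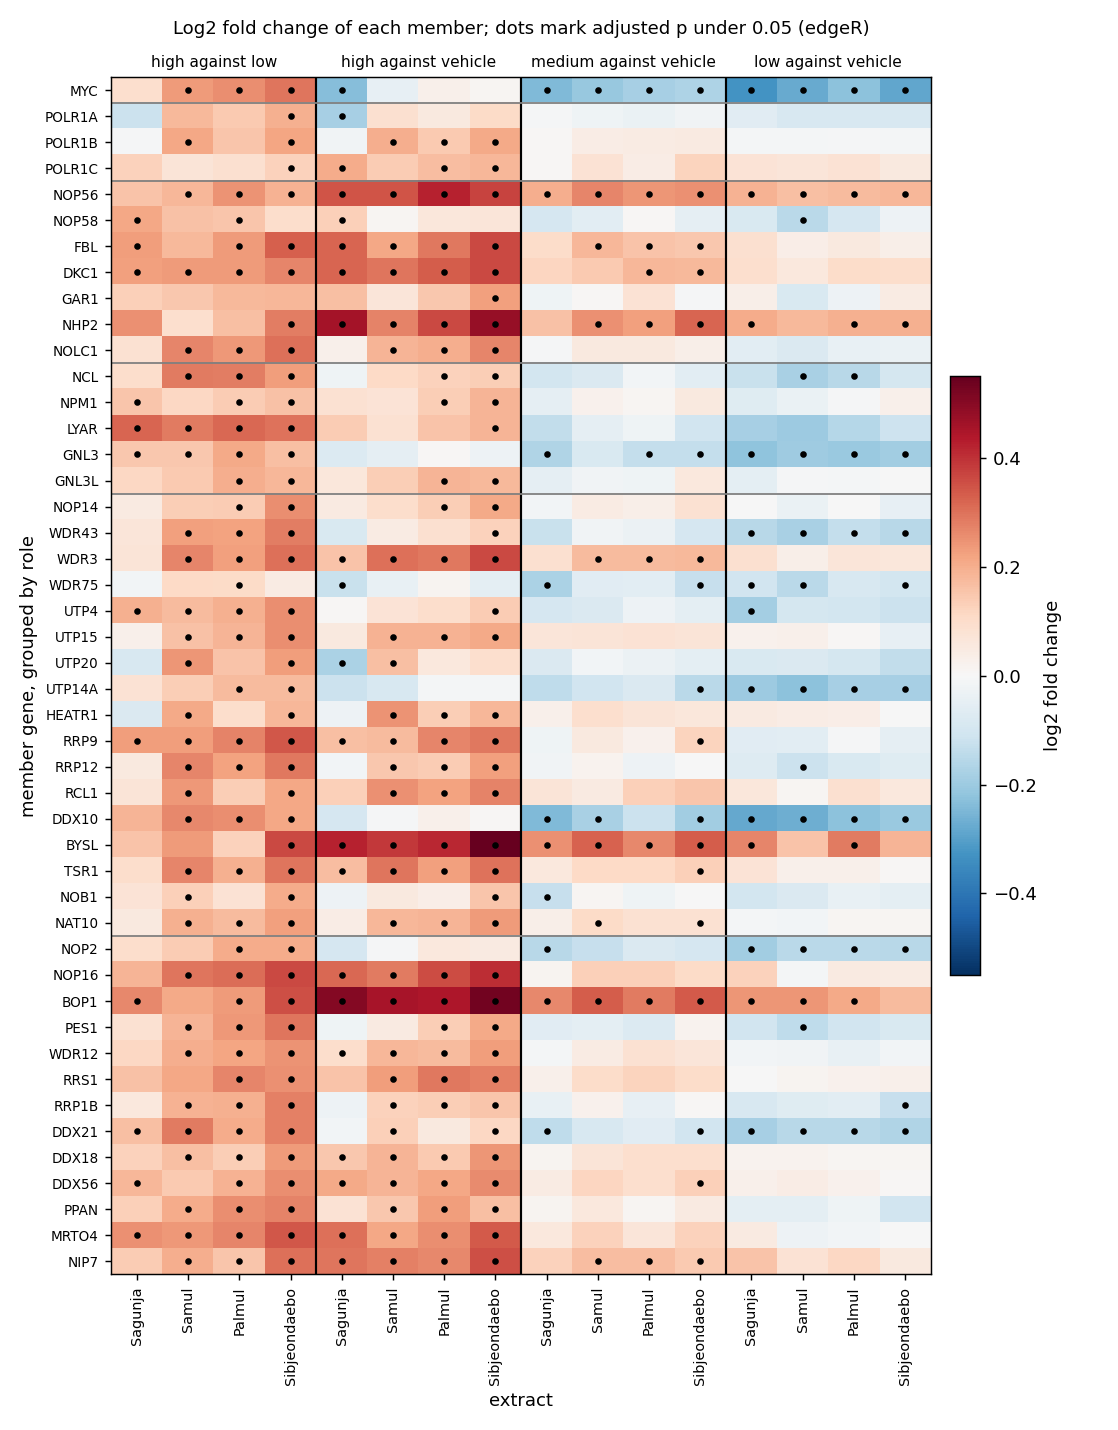
Log2 fold change (colour) of each member (rows, grouped by role) with high against low dose and with each dose against vehicle, for 4 extracts; dots mark an adjusted p under 0.05 by edgeR. Dots with high against low dose cover 12, 30, 36 and 43 of 46 members, and the MYC row is blue in all 8 comparisons of medium and low dose with vehicle.

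MYC itself (ENSG00000136997, chromosome 8, 127735434 to 127741434) was lower than vehicle at the low and medium doses of every extract and near vehicle at the high dose of all but Sagunja-tang. Its level was 309, 311 and 312 CPM in vehicle. At the low dose it was 239 and 256 CPM for Sagunja-tang, 254 and 259 for Samul-tang, 269.9, 264 and 264 for Palmul-tang and 249, 258 and 257 for Sibjeondaebo-tang. No low-dose library reached the lowest vehicle library. Of all genes, 23.6, 23.3, 16.7 and 17.9% lay wholly below vehicle at the low dose of the extracts in this order. For the medium dose this share was not counted. At the medium dose the values were 253 and 272, 254 and 285, 268, 269.5 and 284, and 279, 275 and 274 CPM in the same order, again all below vehicle. At the high dose they were 250.03 and 278 with Sagunja-tang, 284 and 319 with Samul-tang, 317, 316 and 319 for Palmul-tang and 329, 302 and 307 with Sibjeondaebo-tang. The 3 high-dose Palmul-tang libraries thus lay just above vehicle, those of Sibjeondaebo-tang on either side of it, and both of Sagunja-tang below it. At this dose 23.1% of all genes lay wholly above vehicle with Palmul-tang, and 24.8% wholly below it with Sagunja-tang.

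Against vehicle, MYC fell by a log2 fold change of -0.33, -0.28, -0.22 and -0.29 at the low dose (edgeR adjusted p = 0.000126, 0.000846, 0.00142 and 0.00013). At the medium dose the values were -0.24, -0.21, -0.18 and -0.17 (edgeR adjusted p = 0.00269, 0.00628, 0.00683 and 0.00731), all called. The low-dose calls held in each extract whichever library was left out, with adjusted p of at most 0.0339. The medium-dose call was lost without medium-dose replicate 2 for Sagunja-tang (adjusted p = 0.124) and for Samul-tang (adjusted p = 0.284). At the high dose MYC was called lower with Sagunja-tang (-0.23 ± 0.05, adjusted p = 0.000772; adjusted p = 0.0791 without its replicate 2) and not with the others (-0.04 ± 0.05, 0.03 ± 0.05 and 0.01 ± 0.05). High against low dose, MYC rose by 0.23 ± 0.06 with Samul-tang, 0.25 ± 0.05 for Palmul-tang and 0.29 ± 0.05 with Sibjeondaebo-tang (edgeR adjusted p = 0.00877, 0.000291 and 1.86e-05). With Sagunja-tang the difference was 0.09 ± 0.06 (adjusted p = 0.32). The Samul-tang call was lost without low-dose replicate 2, high-dose replicate 3 or low-dose replicate 3 (adjusted p up to 0.304).

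**Figure D3:**
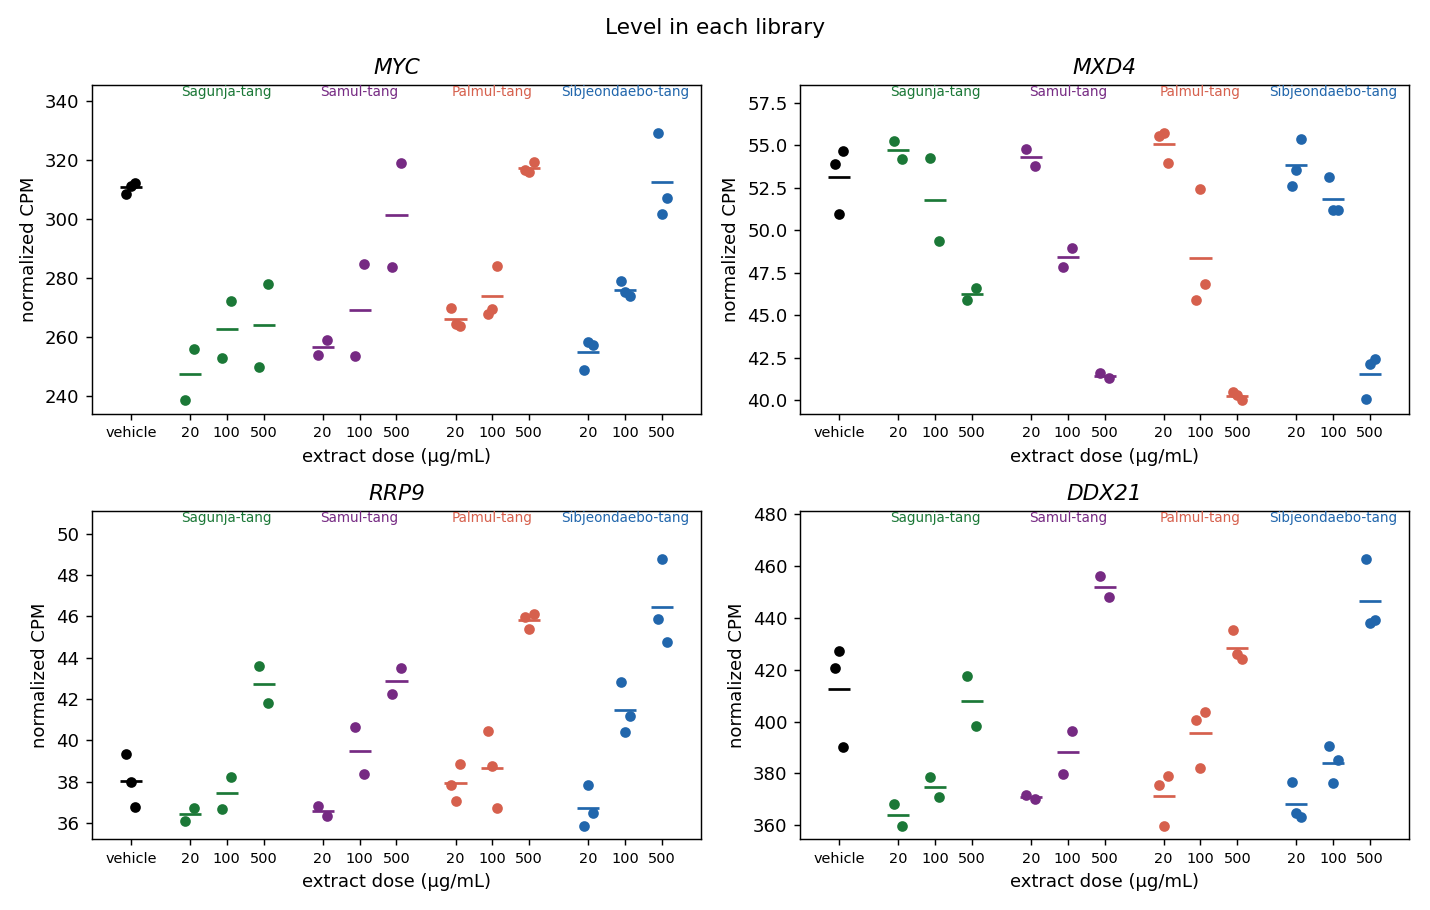
Normalized CPM of MYC, of its antagonist MXD4, of the small subunit factor RRP9 and of the helicase gene DDX21 in each library (points; lines are group means) by extract and dose; the axes do not start at 0. MXD4 lies at 40.0 to 46.6 CPM in the high-dose libraries and at 52.6 to 55.7 in the low-dose ones.

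MYC acts against a family of repressors that compete for MAX, and 8 genes of its partners and antagonists were looked at beside the members. With high against low dose, 0, 1, 1 and 0 of them rose and 1, 1, 1 and 3 fell. Of all genes, 3.33, 4.10, 7.66 and 15.5% were called higher and 3.86, 3.43, 6.75 and 14.3% lower. MXD4, one of these repressors, fell with high against low dose in all 4 extracts. Its level was 53.9, 50.9 and 54.7 CPM in vehicle. At the low dose it was 55.2 and 54.2 CPM with Sagunja-tang, 54.8 and 53.8 with Samul-tang, 55.6, 55.7 and 53.9 for Palmul-tang and 52.6, 53.6 and 55.4 with Sibjeondaebo-tang. At the high dose it was 45.9 and 46.6, 41.6 and 41.3, 40.5, 40.3 and 40.0, and 40.1, 42.2 and 42.5 CPM in the same order. High and low libraries of an extract did not overlap. Of all genes, 22.5, 26.1, 15.5 and 21.7% had every high-dose library below every low-dose one. The MXD4 high-against-low log2 fold changes were -0.24 ± 0.05, -0.39 ± 0.05, -0.45 ± 0.04 and -0.37 ± 0.04 (edgeR adjusted p = 0.00542, 8.57e-06, 1.47e-08 and 1.61e-07). The Sagunja-tang call was lost without high-dose or low-dose replicate 2 (adjusted p up to 0.0793) and the others were kept whichever library was left out. Against vehicle MXD4 fell at the high dose as well, by -0.20, -0.36, -0.40 and -0.35 as log2 fold change, and was not called at the low dose (0.04, 0.03, 0.05 and 0.02). At the medium dose it was -0.04, -0.13, -0.14 and -0.04, called with Samul-tang and Palmul-tang (edgeR adjusted p = 0.0464 and 0.0237). Both medium-dose calls were lost without vehicle replicate 1, vehicle replicate 3 or medium-dose replicate 3, and that with Samul-tang also without its replicate 2, that with Palmul-tang without its replicate 1 (adjusted p up to 0.309), and with total count scaling. MXI1, another MAX-binding repressor, had the opposite sign: it was at 0.11 ± 0.05 with Sagunja-tang and 0.08 ± 0.04 with Sibjeondaebo-tang, not called, and rose with Samul-tang (0.19 ± 0.04) and Palmul-tang (0.16 ± 0.04), calls lost without 2 of 4 and 1 of 6 libraries (Samul-tang low-dose replicate 2 or high-dose replicate 3, Palmul-tang high-dose replicate 3; adjusted p up to 0.228).

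Beside the high against low dose calls of the RNA polymerase I subunits, 3 further values had an adjusted p a little over the threshold. Of all genes, 3.33, 4.10, 7.66 and 15.5% were called higher in this comparison. POLR1A and POLR1B encode the catalytic core of the enzyme and POLR1C a subunit shared with RNA polymerase III. Of the 3, none was called with Sagunja-tang or Palmul-tang, POLR1B rose with Samul-tang (0.21 ± 0.06), and all 3 rose with Sibjeondaebo-tang. Not called were POLR1A and POLR1B with Palmul-tang (0.14 ± 0.05 and 0.15 ± 0.05, edgeR adjusted p = 0.0551 and 0.0519) and POLR1A with Samul-tang (0.18 ± 0.06, adjusted p = 0.0765). With Sibjeondaebo-tang POLR1A went from 167, 159 and 162 CPM at the low dose to 189, 187 and 184 at the high dose (0.19 ± 0.05, edgeR adjusted p = 0.00395), with no overlap. With Sagunja-tang it was 167 and 165 CPM at the low dose and 135 and 170.4 at the high dose. POLR1A has 13519 exon bases, the longest of the members. In replicate 2 of that high dose, the long members set apart above had a median log2 value of -0.051 against the vehicle mean. The other members had 0.121. The low-dose replicates 2 and 3 had -0.057 and -0.064 in the long members and -0.021 and -0.022 in the others. These medians are over groups of members and do not give the value of POLR1A itself. The part of length in the POLR1A value was not tested. POLR1C rose with Sibjeondaebo-tang by 0.13 ± 0.05 (adjusted p = 0.0456), a call kept without 1 of the 6 libraries only, high-dose replicate 3. The Samul-tang call of POLR1B was lost without any 1 of its 4 libraries (adjusted p up to 0.297).

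Of the 7 proteins of the particles that guide rRNA methylation and pseudouridylation, 3, 3, 5 and 5 rose with high against low dose. The share of all genes called higher was 3.33, 4.10, 7.66 and 15.5%. FBL, the rRNA methyltransferase fibrillarin (ENSG00000105202, chromosome 19, 39834458 to 39846414), was at 359, 351 and 347 CPM in vehicle. It went from 361, 378 and 357 to 435, 423 and 433 CPM with Palmul-tang and from 346, 368 and 368 to 453, 463 and 444 with Sibjeondaebo-tang, the high libraries all above the low ones. The log2 fold changes were 0.24 ± 0.05 and 0.33 ± 0.05 (edgeR adjusted p = 0.000779 and 4.77e-06). With Samul-tang the high-dose libraries were at 411 and 404 CPM against 356 and 366 at the low dose, and the test missed the threshold (0.18 ± 0.06, adjusted p = 0.0577). With Sagunja-tang FBL was called (0.23 ± 0.06), but its high-dose libraries were far apart at 486 and 394 CPM, and the call was lost without replicate 2 (adjusted p = 0.671).

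NOLC1, a nucleolar phosphoprotein that accompanies the particles, had tighter replicates. It went from 320.1 and 312 to 389 and 373 CPM with Samul-tang, from 326, 328 and 323 to 395, 376 and 380.3 with Palmul-tang and from 337, 313 and 327 to 416, 391 and 401 with Sibjeondaebo-tang. Its log2 fold changes there were 0.27 ± 0.04, 0.24 ± 0.03 and 0.31 ± 0.03, with edgeR adjusted p of 1.45e-05, 2.36e-06 and 1.67e-08, and these calls were kept whichever library was left out. With Sagunja-tang it was 0.09 ± 0.04 (adjusted p = 0.159). DKC1, the pseudouridine synthase dyskerin, rose in all 4 extracts (0.22, 0.24, 0.23 and 0.27). NOP56 and NOP58, related scaffolds of the box C/D particle, differed in their calls: NOP56 rose in 3 extracts (0.18, 0.25 and 0.19 in all but Sagunja-tang) and NOP58 with Sagunja-tang (0.21) and Palmul-tang (0.15). The difference between these genes was not tested. GAR1, of the H/ACA particle, is the single member called in none, at 0.13, 0.15, 0.18 and 0.18, and its SE of 0.08 to 0.10 is larger than that of NOLC1 (0.03 to 0.04).

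The nucleolar granule proteins, which hold pre-ribosomes, rose in 3, 3, 5 and 5 of 5 members in the same order. The share of all genes called higher was 3.33, 4.10, 7.66 and 15.5%. NCL, nucleolin, was among the members with the highest levels, 1186, 1221 and 1189 CPM in vehicle. It went from 1044 and 1076 to 1362 and 1225 CPM with Samul-tang, from 1060.3, 1089 and 1084 to 1261, 1362 and 1304 with Palmul-tang and from 1185, 1112 and 1071 to 1328, 1345 and 1282 with Sibjeondaebo-tang. In each of these extracts the high libraries lay above the low ones, with log2 fold changes of 0.29 ± 0.05, 0.28 ± 0.04 and 0.23 ± 0.04 (edgeR adjusted p = 0.000701, 4.3e-05 and 0.000178; 0.0671 for Samul-tang without high-dose replicate 2). With Sagunja-tang NCL was not called (0.10 ± 0.05).

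GNL3, the GTPase nucleostemin, rose in all 4 extracts, from below vehicle to about its level. Its levels were 102, 102 and 97.6 CPM in vehicle. With Palmul-tang they were 90.5, 86.4 and 85.3 CPM at the low dose and 102, 100.1 and 101 at the high dose, and with Sibjeondaebo-tang 88.1, 88.7 and 87.3 and 103, 97.7 and 95.1. The low-dose libraries of both extracts were all below vehicle, and the high-dose libraries lay in or within a few CPM of its range. At the low dose of these extracts, 16.7 and 17.9% of all genes lay wholly below vehicle. The log2 fold changes over the 4 extracts were 0.15, 0.15, 0.21 and 0.16, and the calls with Sagunja-tang (3 of 4 libraries) and Samul-tang (all 4) were lost on leaving out 1 library. LYAR, a nucleolar zinc finger protein, also rose in all 4 (0.32, 0.29, 0.31 and 0.30). GNL3L, a paralog of GNL3, rose with Palmul-tang (0.20 ± 0.06) and Sibjeondaebo-tang (0.18 ± 0.06), and these calls were lost without 4 and 3 of the 6 libraries. NPM1, nucleophosmin, rose with all extracts but Samul-tang, by 0.15, 0.14 and 0.16. GENCODE 29 holds 45 pseudogenes named after NPM1, 5 named after DDX18, 3 each after NOP56 and NIP7, 2 each after NCL, NHP2, DDX10 and PES1, and 1 each after LYAR and GNL3L. Counting could split reads between such copies, so these levels are uncertain, and the effect on the comparisons was not tested.

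Small subunit assembly rose in 2, 13, 12 and 16 of 17 members, against 3.33, 4.10, 7.66 and 15.5% of all genes. RRP9, a protein of the small nucleolar particle that guides the earliest cleavages of the precursor (ENSG00000114767, chromosome 3, 51933430 to 51941941), rose in all 4 extracts. Its level was 39.3, 38.0 and 36.8 CPM in vehicle. From low to high dose it went from 36.1 and 36.7 to 43.6 and 41.8 CPM with Sagunja-tang and from 36.8 and 36.4 to 42.3 and 43.5 with Samul-tang. It went from 37.8, 37.1 and 38.9 to 45.971, 45.4 and 46.1 with Palmul-tang and from 35.8, 37.8 and 36.5 to 45.9, 48.8 and 44.8 with Sibjeondaebo-tang. All 10 high-dose libraries were above all low-dose and vehicle libraries. Extract by extract, 24.9, 26.4, 23.1 and 24.3% of all genes lay wholly above vehicle at the high dose. The share above in all extracts at once was not counted. The log2 fold changes were 0.23 ± 0.05, 0.23 ± 0.05, 0.27 ± 0.04 and 0.34 ± 0.04 (edgeR adjusted p = 0.00592, 0.00307, 1.9e-05 and 2.87e-07). Without high-dose replicate 2 or low-dose replicate 2 the Sagunja-tang call was lost (adjusted p up to 0.150), and without high-dose or low-dose replicate 3 so was that of Samul-tang (adjusted p up to 0.0738).

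Of the other described small subunit factors, RRP12, TSR1 and NAT10 rose in the 3 extracts other than Sagunja-tang. RRP12, which takes part in the export of pre-ribosomes, rose by 0.27 ± 0.04 with Samul-tang, 0.22 ± 0.04 for Palmul-tang and 0.29 ± 0.04 with Sibjeondaebo-tang. TSR1, a late assembly factor, rose by 0.27 ± 0.05, 0.20 ± 0.04 and 0.29 ± 0.04, and NAT10, which acetylates the small subunit rRNA, by 0.20 ± 0.04, 0.18 ± 0.03 and 0.22 ± 0.03. Except for NAT10 with Samul-tang (adjusted p = 0.0805 without high-dose replicate 2), these 9 calls were kept whichever library was left out. NAT10 libraries ran from 139, 134 and 135 CPM at the low dose to 159, 158 and 160.02 at the high dose of Sibjeondaebo-tang, with 135, 131 and 139.6 in vehicle. UTP4, of the early complex that joins transcription and processing of the precursor, rose in all 4 extracts (0.19, 0.17, 0.19 and 0.26). WDR75, of the same complex, was called with Palmul-tang alone (0.11 ± 0.03, adjusted p = 0.0365), a call lost without 5 of the 6 libraries, and stood at -0.02 ± 0.04, 0.11 ± 0.04 and 0.05 ± 0.03 with the others.

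Large subunit assembly rose in 4, 9, 13 and 13 of 13 members, against 3.33, 4.10, 7.66 and 15.5% of all genes. DDX21, an RNA helicase that binds rRNA and small nucleolar RNAs (ENSG00000165732, chromosome 10, 68956128 to 68985073), had 421, 427 and 390.1 CPM in vehicle. From low to high dose it went from 368 and 359.8 to 418 and 398 CPM with Sagunja-tang and from 372 and 370.1 to 456 and 448 with Samul-tang. It went from 376, 359.7 and 379 to 435, 426 and 424 with Palmul-tang and from 377, 365 and 363 to 463, 438 and 439 with Sibjeondaebo-tang. High and low libraries did not overlap in any extract, and all low-dose libraries were below vehicle. Extract by extract, 23.6, 23.3, 16.7 and 17.9% of all genes lay wholly below vehicle at the low dose. The log2 fold changes were 0.16 ± 0.04, 0.29 ± 0.04, 0.21 ± 0.03 and 0.28 ± 0.03 (edgeR adjusted p = 0.0184, 4.15e-05, 0.000119 and 6.76e-07). The Sagunja-tang call was lost without any library but high-dose replicate 3 (adjusted p up to 0.335), and the calls of the other extracts were kept without any 1 library.

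MRTO4, which holds the place of a stalk protein in the pre-ribosome, rose in all 4 extracts as well (0.25 ± 0.06, 0.24 ± 0.06, 0.27 ± 0.05 and 0.34 ± 0.05). Its high-dose Sagunja-tang libraries were at 124 and 98.3 CPM against 91.8 and 94.4 at the low dose, and those of Sibjeondaebo-tang at 108, 116 and 117 against 90.1, 88.9 and 90.2. WDR12, BOP1 and PES1 form a complex needed for processing of the large subunit rRNA. WDR12 rose by 0.20 ± 0.04 with Samul-tang, 0.22 ± 0.03 for Palmul-tang and 0.25 ± 0.03 with Sibjeondaebo-tang. BOP1 rose with all but Samul-tang, by 0.26 ± 0.08, 0.24 ± 0.07 and 0.36 ± 0.07, with a larger SE than WDR12. NOP16, a nucleolar protein of large subunit assembly, had among the largest shifts, 0.29 ± 0.07, 0.31 ± 0.06 and 0.36 ± 0.06 outside Sagunja-tang (0.19 ± 0.07, not called). On leaving out 1 library, the calls of MRTO4 and BOP1 with Sagunja-tang and of MRTO4, NOP16 and WDR12 with Samul-tang were lost in at least 1 case (adjusted p up to 0.657, 0.801, 0.193, 0.186 and 0.0573), as was that of BOP1 with Palmul-tang (0.0913).

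**Figure D4:**
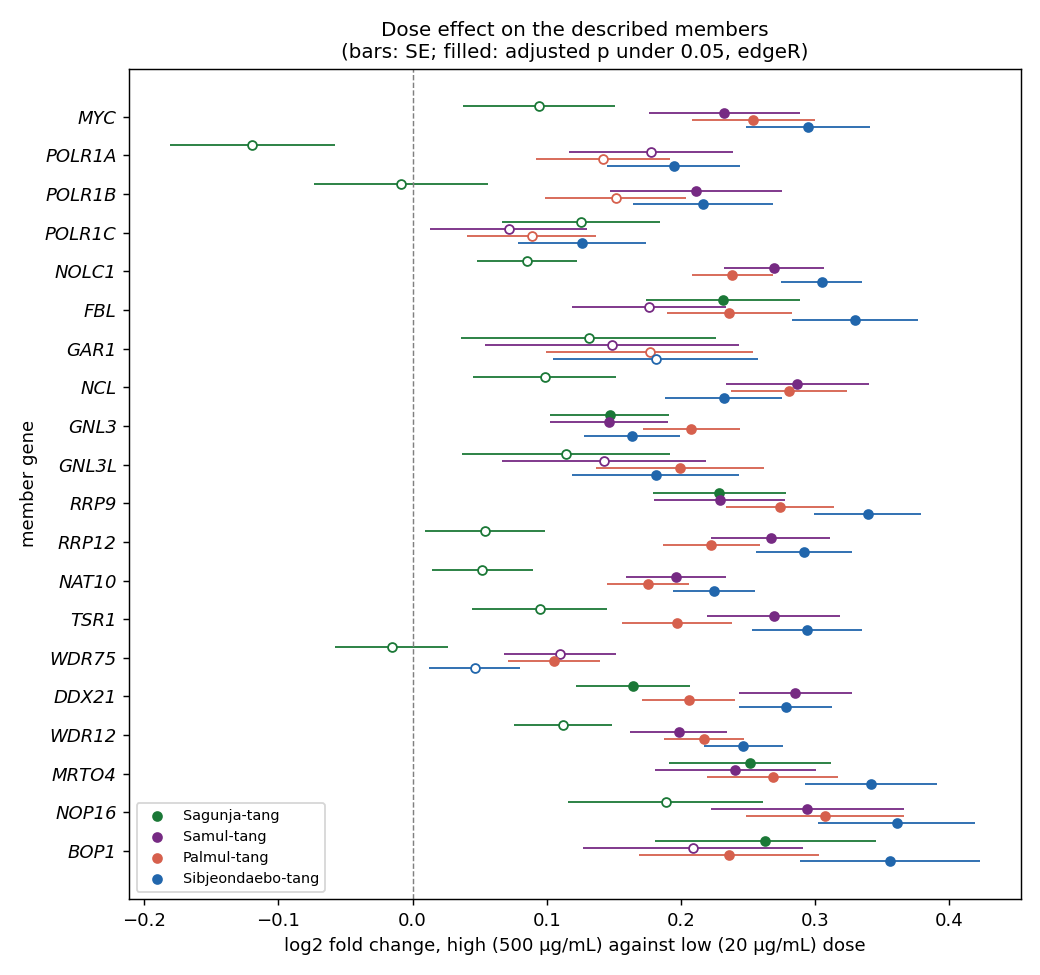
Log2 fold change (± SE) of the described members with high against low dose in each extract; filled points have an adjusted p under 0.05 by edgeR. Sibjeondaebo-tang has 18 filled points of 20 and Sagunja-tang 6.

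Over the extracts, DKC1, LYAR, GNL3, UTP4, RRP9, DDX21 and MRTO4 were called higher in all 4, 22 members in 3, 11 in 2, 5 in 1 and GAR1 in none. Of all genes tested, 1.02% were called higher in all 4, 2.7% in 3, 4.4% in 2, 9.68% in 1 and 82.2% in none. A call in all 4 includes a Sagunja-tang call, and 0 of those 12 were kept whichever library was left out. Between members with and without the E-box in their window, the median log2 fold change was 0.13 against 0.11 for Sagunja-tang, then 0.20 against 0.20, 0.21 against 0.19 and 0.26 against 0.23 for the other extracts (17 and 21 members). The 7 members with over 8000 exon bases had a median of 0.05 with Sagunja-tang, with 0 called, against 0.13 in the others. With Samul-tang it was 0.24 against 0.19, with Palmul-tang 0.22 against 0.20 and with Sibjeondaebo-tang 0.23 against 0.26.

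At the step from low to medium dose, 0 members were called by edgeR in any extract. The share of all genes called higher was 0.00, 0.00574, 0.00574 and 0.0287%, and 0.00, 0.00, 0.00 and 0.0688% were called lower, so the test called almost nothing at this step. The members' median log2 fold change was 0.02, 0.09, 0.07 and 0.07, and 0, 11, 10 and 17 of them had an unadjusted p under 0.05, against 3.00, 4.00, 4.80 and 10.0% of all genes. DESeq2 called 0, 0, 0 and 2 members. For Palmul-tang and Sibjeondaebo-tang, the replicate numbers were taken to pair the samples at this step. The fit with the replicate number as a block called 0 and 2 members there. That block gives each number an effect shared by all 33 libraries, so pairing within an extract was not fitted by itself. Every medium-dose library was above every low-dose library in 8, 37, 13 and 24 members, against 17.3, 18.9, 4.20 and 9.33% of all genes.

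Against vehicle, the members split by gene. At the high dose 17, 27, 31 and 37 of 46 rose and 4, 0, 0 and 0 fell, while 18.7, 15.0, 17.3 and 20.5% of all genes were called higher and 18, 12.5, 14.8 and 19.1% lower. The median log2 fold change of the members was 0.07, 0.16, 0.15 and 0.21. A set of 15 rose at the high dose of every extract, NOP56, FBL, DKC1, NHP2, WDR3, RRP9, BYSL, TSR1, NOP16, BOP1, WDR12, DDX18, DDX56, MRTO4 and NIP7. These comparisons share the vehicle libraries. The share of all genes called in all 4 extracts was not counted for the high, medium or low dose against vehicle, so such sets have no background here. BOP1 (0.51, 0.45, 0.44 and 0.53), BYSL, a small subunit factor (0.42, 0.39, 0.41 and 0.55), and NOP56 (0.35, 0.35, 0.42 and 0.37) had some of the largest values. With Sagunja-tang MYC, POLR1A (-0.18 ± 0.06), WDR75 (-0.12 ± 0.04) and UTP20, a small subunit factor (-0.17 ± 0.06), fell. Without high-dose replicate 2, 8 members were called with Sagunja-tang, none of them lower, and 17 with Samul-tang. Calls kept whichever library was left out numbered 8 of 21, 14 of 27, 21 of 31 and 29 of 37. Scaling by total counts gave 21 higher and 1 lower with Sagunja-tang.

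At the low dose the same comparison gave 4, 2, 4 and 2 members higher and 9, 12, 8 and 9 lower, beside 11.1, 8.89, 10.6 and 11.1% of all genes called higher and 10.7, 8.71, 9.74 and 10.9% called lower. The members' median was -0.03, -0.04, -0.01 and -0.02. MYC, GNL3, WDR43, UTP14A, DDX10, NOP2 and DDX21 were called lower in all 4 extracts, and NOP56 higher in all 4 (0.19, 0.17, 0.17 and 0.18). All 12 comparisons with vehicle share its 3 libraries, so these calls are not separate evidence. The helicase gene DDX10 was at -0.28, -0.27, -0.23 and -0.21, GNL3 at -0.22, -0.20, -0.20 and -0.19 and DDX21 at -0.18, -0.15, -0.15 and -0.16. The rRNA methyltransferase gene NOP2 was at -0.19, -0.15, -0.15 and -0.15, WDR43 at -0.15, -0.18, -0.13 and -0.15 and UTP14A at -0.20, -0.22, -0.18 and -0.18, the latter 2 being factors of early small subunit assembly. These calls depend on the scaling: by total counts MYC, GNL3 and DDX10 were lower in all 4 extracts, DDX21 in Palmul-tang and Sibjeondaebo-tang, and NOP2, WDR43 and UTP14A in none, and the split of members became 10 higher and 3 lower, 3 and 3, 5 and 4, and 4 and 4. A change of scaling shifts all genes, and the counts over all genes by total counts are not reported here for any comparison.

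Single libraries moved the low-dose counts too. For Sagunja-tang 8 were called without vehicle replicate 3 and 5 without low-dose replicate 2. For Samul-tang the counts were 7 and 8 on leaving out vehicle replicate 2 or 3, and 3 and 2 without low-dose replicate 2 or 3. For Palmul-tang 7 were called without low-dose replicate 2, and for Sibjeondaebo-tang 5 without vehicle replicate 3 and 6 without low-dose replicate 3. The NOP56 call was kept whichever library was left out in 3 extracts and was lost in Samul-tang without vehicle replicate 3, low-dose replicate 2 or low-dose replicate 3. The DDX10 call was kept throughout in all 4 extracts, as was that of MYC. The DDX21 call was lost in Samul-tang without either low-dose library. The GNL3 call was lost in Sagunja-tang without low-dose replicate 2 (adjusted p = 0.0514) and in Samul-tang without low-dose replicate 3 (adjusted p = 0.0581). Those of NOP2, WDR43 and UTP14A were lost without at least 1 library in every extract, vehicle replicate 3 among them except for NOP2 with Sagunja-tang.

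At the medium dose 3, 8, 8 and 12 members rose and 7, 2, 2 and 6 fell against vehicle, beside 8.40, 10.9, 10.3 and 14.0% of all genes called higher and 8.05, 9.27, 9.63 and 12% lower. NOP56 (0.20, 0.27, 0.24 and 0.25), BYSL (0.25, 0.32, 0.26 and 0.33) and BOP1 (0.27, 0.33, 0.28 and 0.34) rose in all 4 extracts, and MYC was the single member that fell in all 4. The NOP56 call was lost with Sagunja-tang without medium-dose replicate 3 (adjusted p = 0.0523). The BYSL and BOP1 calls were lost without medium-dose replicate 2 with Sagunja-tang and Samul-tang, and without vehicle replicate 3 with Sagunja-tang (adjusted p up to 0.210). With Palmul-tang that of BYSL was lost without vehicle replicate 3, medium-dose replicate 1 or medium-dose replicate 2 (adjusted p up to 0.11). By total counts the split was 8 higher and 2 lower, 14 and 1, 18 and 1, and 17 and 3. Without vehicle replicate 2, 6 were called with Sagunja-tang and 11 with Sibjeondaebo-tang; without vehicle replicate 3, 6 for Samul-tang, 5 for Palmul-tang and 10 for Sibjeondaebo-tang. Without medium-dose replicate 2, 1 was called with Sagunja-tang, 1 with Samul-tang and 4 with Palmul-tang; 5 were called without medium-dose replicate 3 of Sagunja-tang and 5 without medium-dose replicate 1 of Palmul-tang.

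Between extracts of one code set at the high dose, 9 members were higher with Samul-tang than with Sagunja-tang and 0 lower (3.55 and 1.92% of all genes), and 1 was higher with Sibjeondaebo-tang than with Palmul-tang and 0 lower (0.350 and 3.52% of all genes). The 9 were MYC (0.19 ± 0.06), POLR1A (0.27 ± 0.06), POLR1B, NOLC1, UTP20 (0.34 ± 0.07), HEATR1 (0.28 ± 0.06), RRP12, NAT10 and DDX21. POLR1A, UTP20, HEATR1 and RRP12 have over 8000 exon bases. The count was 0 without Sagunja-tang replicate 2, 1 without Samul-tang replicate 2 and 2 without Samul-tang replicate 3, while without Sagunja-tang replicate 3 there were 10 higher and 5 lower. The 1 member higher with Sibjeondaebo-tang was NOB1, the nuclease that trims the small subunit rRNA (0.12 ± 0.03), and without any of 5 of the 6 libraries it was not called, the exception being Palmul-tang replicate 1.

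The difference in dose effect between extracts was also tested itself, and edgeR called 0 members in any of 4 contrasts. Those of Palmul-tang with Sagunja-tang and with Samul-tang cross code sets, though each dose effect lies within its own set. The share of all genes called higher was 0.115% for Samul-tang minus Sagunja-tang, 0.0287% for Sibjeondaebo-tang minus Palmul-tang, 0.00574% for Palmul-tang minus Sagunja-tang and 0.00% for Palmul-tang minus Samul-tang, and 0.0229, 1.42, 0.00 and 0.00% were called lower. At an unadjusted p under 0.05 there were 12, 4, 14 and 0 members, against 11.1, 10.8, 8.61 and 3.96% of all genes, and DESeq2 called 1, 0, 0 and 0. The members' median difference was 0.07, 0.06, 0.09 and 0.01 on the log2 scale. For MYC the difference was 0.14 ± 0.08, 0.04 ± 0.07, 0.16 ± 0.07 and 0.02 ± 0.07. The lower number of calls with Sagunja-tang is therefore not shown to be a weaker dose effect. Without high-dose Sagunja-tang replicate 3, 7 members were called higher and 2 lower for Samul-tang minus Sagunja-tang, and 5 were called for Palmul-tang minus Sagunja-tang.

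Other genes of the pathway were followed in 8 lists of 176 genes, also compared between high and low dose. Of all genes tested, 3.33, 4.10, 7.66 and 15.5% were called higher in this comparison, and list counts near these shares are no result about the list. Further RNA polymerase I subunits and factors rose in 4, 3, 3 and 8 of 13, with TCOF1, the nucleolar factor treacle, at 0.25, 0.30, 0.33 and 0.32 and the polymerase subunit gene POLR1G at 0.19, 0.34, 0.32 and 0.38, called in all 4 extracts. Leaving out 1 library lost the POLR1G call with Sagunja-tang in 3 of 4 cases and no TCOF1 call. Further genes of the small nucleolar particles rose in 2, 2, 6 and 6 of 10, among them RUVBL1 and RUVBL2, ATPases that help assemble the particles, with Palmul-tang (0.17 and 0.25) and Sibjeondaebo-tang (0.22 and 0.31). Further small subunit factors rose in 4, 12, 18 and 29 of 41 and further large subunit factors in 8, 13, 21 and 29 of 40, where NOC2L (0.18, 0.18, 0.25 and 0.27) and EBNA1BP2 (0.23, 0.21, 0.24 and 0.37) rose in all 4. Both calls with Sagunja-tang and both with Samul-tang were lost without 1 or more of the libraries (adjusted p up to 0.375), while those with the other extracts were kept. The RNA exosome, which trims rRNA ends, rose in 3, 1, 4 and 8 of 12.

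Known MYC targets outside ribosome assembly rose in 8, 12, 15 and 22 of 22, against 3.33, 4.10, 7.66 and 15.5% of all genes. The lactate dehydrogenase gene LDHA (0.14, 0.29, 0.18 and 0.32) and the mitochondrial serine enzyme gene SHMT2 (0.12, 0.19, 0.20 and 0.23) rose in all 4 extracts. With Sagunja-tang both calls were lost without any library but high-dose replicate 3, and that of SHMT2 also with Samul-tang without low-dose replicate 2 (adjusted p = 0.061). Among promoter windows, 11 of 21 of these targets held CACGTG (52.4%). The genes of cytosolic ribosomal proteins, the products that the assembly factors handle, rose in 0, 0, 1 and 8 of 30, against the same shares of all genes. Their median was 0.13, -0.03, 0.05 and 0.13, and 2 of 23 windows held the motif (8.70%).

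Per kilobase of exon in vehicle, the members spanned from 423 ± 15.6 CPM per kb (SD, n = 3) for NPM1 to 5.37 ± 0.13 for UTP15. The length is that of all exons annotated for a gene, merged, which can exceed that of the RNA made. The order of genes therefore depends on the annotation as well as on the level. NCL at 173 ± 2.84 and FBL at 162 ± 2.94 followed NPM1, then MYC at 104 ± 0.654, NOLC1 at 84.3 ± 1.14 and DDX21 at 82.2 ± 3.94. NOLC1 and DDX21 did not differ beyond their spread. POLR1A (12.8 ± 0.295) and POLR1B (11.3 ± 0.879), which sit in one enzyme, were at similar levels, and POLR1C was at 6.57 ± 0.374. On this measure the polymerase subunits stood below the particle proteins, of which GAR1 was the lowest at 16.3 ± 1.15. Whether this holds for the transcripts made was not tested.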

How the data were processed

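RNA-seq of 33 HT29 libraries was analysed from 1 deposited table of estimated counts per gene (60675 genes). Per the submitters' processing notes, the authors used FastQC 0.11.9, Trim Galore 0.6.5, STAR 2.7.3a and RSEM 1.3.3 with hg38; the annotation release is not given in the sources used here, and GENCODE 29 supplied gene positions for 57055 identifiers. Of 273 columns, 240 that match no sample here were not used. The deposited expected counts, of which 9.45% were not whole, were rounded.

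edgeR 4.0.16 in R 4.3.3 was run with TMM scaling, a minimum count of 10 and 1 coefficient for each of 13 groups, all 33 libraries sharing the spread (20 residual degrees of freedom), followed by the quasi-likelihood F test and Benjamini-Hochberg adjustment over 17432 genes in each of 26 comparisons. Standard errors (SE) were taken as the absolute log2 fold change over the root of F. Alternatives were DESeq2 1.42.0, RLE and total count scaling, no filter, a replicate block, removal of length and GC trends, fits on the groups compared alone and leaving out each library. The replicate block gave each replicate number an effect shared by all 33 libraries.

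Replicate numbers were checked for pairing by the correlation of deviations from group means. All 3 pairs exceeded 0.1 for medium against low dose of Palmul-tang (0.272, 0.552 and 0.424) and Sibjeondaebo-tang (0.176, 0.245 and 0.399), so the numbers were taken to pair these samples from the data, since the labels state no shared day or batch for a number. In groups of 2 libraries the deviations mirror each other, so the check gives a single value. It also exceeded 0.1 for medium against low dose of Sagunja-tang (0.24) and for Samul-tang against Sagunja-tang at high dose (0.174), where no pairing was taken.

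Members and gene lists were chosen with earlier results of these data known. Described by library are MYC and, in each role, the 2 members (4 for both assembly roles) with the smallest mean rank of p over the high against low comparisons and the 1 with the largest; other lists name at most 2. Members named outside this rule were chosen after their values were seen.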

Additional observations from a re-analysis of the deposited data

How the results depend on the processing

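Counts below are of members called, out of 46. Fitted on the compared groups alone, the count against vehicle was 6 at high and 5 at medium dose of Sagunja-tang, 6 at medium dose of Samul-tang and 5 at medium dose of Palmul-tang; it was 0 for Sagunja-tang high against low dose, 0 for Samul-tang against Sagunja-tang and 0 for Sibjeondaebo-tang against Palmul-tang. With total count scaling it was 6 at low dose of Samul-tang and 19 at medium dose of Palmul-tang against vehicle, 5 and 15 for high against low dose of Sagunja-tang and Samul-tang, 4 for Samul-tang against Sagunja-tang and 0 for Sibjeondaebo-tang against Palmul-tang. Without a filter it was 6 at medium dose of Sagunja-tang, 0 for Sibjeondaebo-tang against Palmul-tang, and 3 and 1 for the dose effects of Samul-tang and Palmul-tang minus that of Sagunja-tang. DESeq2 gave 2 for Sibjeondaebo-tang medium against low dose and 1 for the dose effect of Samul-tang minus that of Sagunja-tang. The replicate block gave 2 for Sibjeondaebo-tang medium against low dose, and 16, 36, 39 and 44 for the 4 comparisons of high with low dose, where the numbers are not shown to pair the samples. The causes of these shifts were not tested.

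Leaving out 1 library, counts against vehicle at high, medium and low dose ranged over 8 to 27, 1 to 14 and 5 to 15 for Sagunja-tang, 17 to 25, 1 to 12 and 2 to 12 for Samul-tang, 22 to 30, 4 to 15 and 7 to 15 for Palmul-tang, and 32 to 36, 10 to 20 and 5 to 13 for Sibjeondaebo-tang. For high against low dose they were 0 to 24, 9 to 11, 30 to 33 and 41 to 43. They were 0 to 15 for Samul-tang against Sagunja-tang, 0 to 1 for Sibjeondaebo-tang against Palmul-tang, and 0 to 9 and 0 to 5 for the dose effects of Samul-tang and Palmul-tang minus that of Sagunja-tang. A group left with 1 library is assumed to vary like the others. Over the 156 single results of described members, 1932 alternative values gave 1613 on the same side of the threshold, 319 with the same direction past it no longer, and 0 of the other direction. The 156 are those results of described members that edgeR called with TMM on all 33 libraries. Results not called there were not followed, so calls gained under an alternative are not counted among them. Sagunja-tang and Samul-tang have 2 libraries per dose, which limits the precision of their values.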
